A study of Drosophila melanogaster with 3 samples.

Results

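The authors kept 6896 peaks of the transcription factor Bab1 by the irreproducible discovery rate (IDR), a measure of how well ranked peaks recur between replicates, and 291 of them had their summit in intergenic DNA. This is 4.22% of the list (exact 95% confidence interval 3.76% to 4.72%, counting error only). A summit counted as intergenic when it lay in no annotated gene body and in no promoter, where a promoter runs from 1000 bp upstream to 100 bp downstream of any transcription start site (TSS). The other IDR summits comprised 5014 in promoters and 1591 in gene bodies outside promoters. The peaks came from chromatin immunoprecipitation followed by sequencing (ChIP-seq) with an antibody against GFP, in whole adult females of a transgenic Drosophila melanogaster line that stably carries Bab1 with GFP at its C terminus. All samples form 1 group of 3 biological replicates that share the transgene, of unknown age per the labels, and no untagged flies were analysed here. The strain label names the bab1-RA form of the gene. Whole flies mix all tissues, so a peak does not say in which cells the DNA was bound, and binding by Bab1 was not separated from background of the immunoprecipitation. The lists hold no read counts, so the depth of the libraries is unknown from them.

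Bab1 (Bric-a-brac 1) carries a BTB domain, through which such proteins associate with each other, and it binds DNA through a pipsqueak-type domain that prefers sequence rich in A and T. In the fly it represses pigment genes in the female abdomen and patterns the legs, the antennae and the terminal filaments of the ovary. Intergenic DNA outside promoters holds distant enhancers, insulators and promoters that the annotation lacks. Insulator proteins such as Su(Hw), CTCF and BEAF-32 bind DNA motifs of their own and mark borders between chromosomal domains, whereas the DNA replication-related element (DRE) and motif 1 are typical of the promoters of housekeeping genes.

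The DNA under the summits is shown first, as windows that reach 50 bases to either side of the summit, read from the plus strand of the RefSeq genome (dm6). Capitals mark every match, on either strand, to the patterns described with the sequence results. The first 3 windows belong to the strongest intergenic peaks among those shown, between COX7AL2 and CG31668 (chr2L:2202368-2202468), between Sol1 and Cyp9f2 (chr3R:12403089-12403189), and between asRNA:CR44087 and glec (chr3R:21849180-21849280). The next 3 carry TGCATA, part of the Su(Hw) site, between spri and Rab9D (chrX:10587607-10587707), between lncRNA:CR45643 and tara (chr3R:16224440-16224540), and between osp and CG15282 (chr2L:14706346-14706446). The last 2 carry AGGTGGCG, part of the CTCF site, between lncRNA:CR45624 and sbr (chrX:10832539-10832639) and between Bap111 and His3.3B (chrX:9152180-9152280). The peaks beside tara, osp, sbr and Bap111 were chosen for these patterns after the values were seen.
COX7AL2/CG31668: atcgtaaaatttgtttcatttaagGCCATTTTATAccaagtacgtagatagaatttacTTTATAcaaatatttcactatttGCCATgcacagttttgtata
Sol1/Cyp9f2: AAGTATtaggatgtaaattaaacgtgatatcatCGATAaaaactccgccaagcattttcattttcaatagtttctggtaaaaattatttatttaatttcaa
asRNA:CR44087/glec: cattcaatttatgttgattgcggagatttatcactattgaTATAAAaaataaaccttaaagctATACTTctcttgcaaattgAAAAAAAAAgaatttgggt
spri/Rab9D: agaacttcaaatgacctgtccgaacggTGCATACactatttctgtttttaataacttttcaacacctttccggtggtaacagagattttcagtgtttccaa
lncRNA:CR45643/tara: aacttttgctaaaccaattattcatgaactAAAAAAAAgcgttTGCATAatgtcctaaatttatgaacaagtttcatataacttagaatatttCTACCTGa
osp/CG15282: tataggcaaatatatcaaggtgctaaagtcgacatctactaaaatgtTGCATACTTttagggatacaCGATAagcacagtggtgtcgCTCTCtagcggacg
lncRNA:CR45624/sbr: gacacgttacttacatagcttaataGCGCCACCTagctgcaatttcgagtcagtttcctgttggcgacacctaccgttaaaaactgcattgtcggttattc
Bap111/His3.3B: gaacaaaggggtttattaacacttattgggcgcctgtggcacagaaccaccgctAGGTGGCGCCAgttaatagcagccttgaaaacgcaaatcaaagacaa

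The strongest intergenic peak lay between COX7AL2, a gene for a subunit of cytochrome c oxidase, and CG31668 (2L, 2201976 to 2202932), 3748 bp from the TSS of CG31668. Its signal value in the IDR list, a strength given by the authors' peak caller, was 3613. It ranked 18 of 6896 there, and it ranked 20, 14 and 20 in replicates 1, 2 and 3. Its window above is poor in G and C, at 26.7%, against 54.5% in the windows centred 500 bp to either side. The 3 replicates placed it within a few ranks of each other.

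The strongest 12 intergenic peaks had signal values of 1007 to 3613, and every one was found in all 3 replicates. A peak between Sol1 and Cyp9f2, a cytochrome P450 gene (3R, 12402967 to 12403295), had IDR rank 133 and ranks 139, 138 and 139 in the replicates. It sat between the ends of 2 converging genes, in a gap of 437 bp, with the nearest TSS that of the DNA ligase gene DNAlig3 at 1300 bp. A peak between asRNA:CR44087 and glec, which encodes a carbohydrate-binding protein of glia (3R, 21848824 to 21849413), had IDR rank 258 and ranks 363, 150 and 807, so replicate 3 placed it lower. The peak at PGRP-SA, which encodes a recognition protein for bacterial peptidoglycan (X, 11560270 to 11560721), lay 1160 bp upstream of its TSS. It had IDR rank 300 and ranks 290, 235 and 923, again lowest in replicate 3.

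Other peaks of this set lay next to genes of varied function. The peak between lncRNA:CR46243 and Myc, the growth regulator (X, 3371301 to 3371680), had IDR rank 297 and ranks 234, 346 and 393. Its nearest TSS lay at 1712 bp, where Myc and lncRNA:CR44999 both start. The peak past the end of Paics, of purine synthesis (X, 12755186 to 12755585), had IDR rank 318 and ranks 377, 335 and 284. The peak between spri, a Ras and Rab effector, and the GTPase gene Rab9D (X, 10587510 to 10587847) had IDR rank 347 and ranks 245, 451 and 253. All 3 were high in every replicate. The peak between the gustatory receptor genes Gr93a and Gr93b (3R, 21839626 to 21840005), with IDR rank 382, ranked 496, 299 and 849. The spread of ranks between replicates was thus wide for some of the 12 and narrow for others, with 923 the lowest rank of any in a replicate. Of the 12 windows, 10 had a lower GC content than their own flanks, over a range of 20.8% to 41.6%. Over all members it was 168 of 291 (57.7%).

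**Figure D1:**
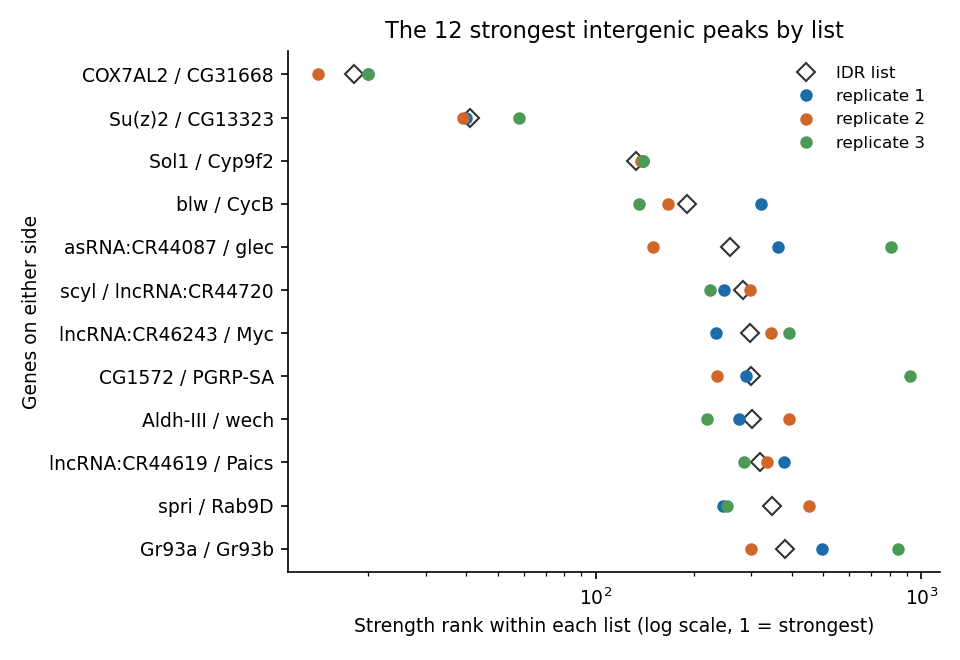
Strength rank (x axis, log scale, 1 = strongest) of the 12 strongest intergenic peaks, named by the genes on either side, in the IDR list (open diamonds) and in each replicate (filled circles). The peak between COX7AL2 and CG31668 ranked 14 to 20 in the replicates, and the widest spreads, with replicate 3 lowest, are those beside glec, PGRP-SA and the Gr93 genes.

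On chromosome 2R, the peak between Su(z)2, a Polycomb group gene, and CG13323 (13035015 to 13035641) was the second strongest of all 291, with signal 2649, IDR rank 41 and ranks 40, 39 and 58. It lay 11980 bp from the nearest TSS. The peak between blw, which encodes a subunit of ATP synthase, and CycB, the mitotic cyclin B gene (22802809 to 22803123), had IDR rank 190 and ranks 322, 167 and 136. The peak between Aldh-III, an aldehyde dehydrogenase gene, and wech (7478597 to 7478958) had IDR rank 301 and ranks 275, 393 and 220. Past the end of scyl, an inhibitor of TOR signalling, on 3L (11261339 to 11261836), the IDR rank was 283 and the ranks were 248, 297 and 224.

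Intergenic summits were rarer among strong peaks than among weak ones. The top list of each replicate, meaning its 6896 strongest peaks of 30000, held 303, 278 and 327 intergenic summits in replicates 1, 2 and 3. These are 4.39%, 4.03% and 4.74%, with a mean of 4.39% ± 0.355 (SD, n = 3). Among the 23104 weaker peaks the shares were 8.52%, 8.67% and 9.05%. The top lists were lower in 3 of 3 replicates, by a difference of -4.36 ± 0.26 percentage points (SD, n = 3; exact two-sided sign-flip permutation p = 0.25, the smallest that 3 replicates can give). The difference was larger than the spread between replicates, and the ranges did not overlap. In the list called on the pooled replicates, the share was 3.78% in the 5000 strongest peaks, 6.28% and 8.98% in the next bins of that size, and 10.38% in the 5000 weakest. Between the same strongest and weakest bins, gene body peaks rose from 21.42% to 69.68% and promoter peaks fell from 74.8% to 19.94%. The rise towards weak peaks is thus not particular to intergenic peaks.

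**Figure D2:**
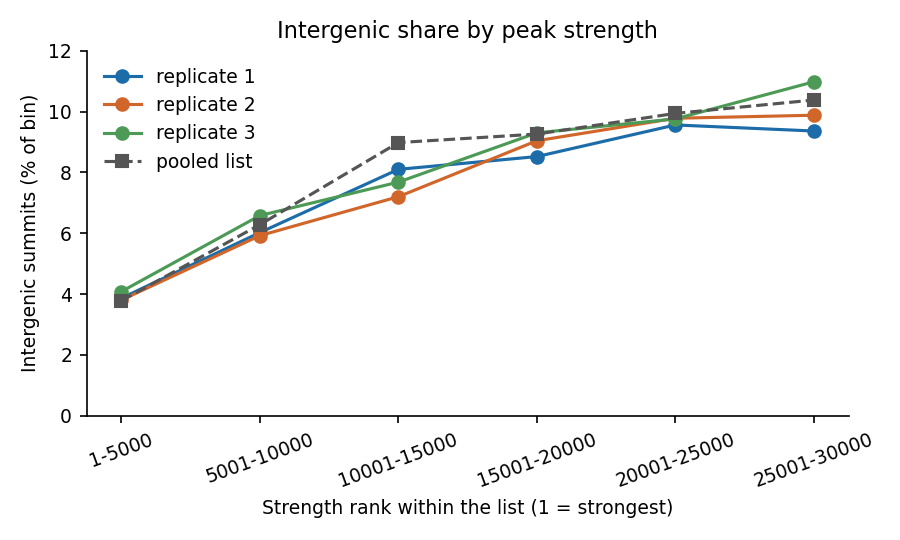
Share of intergenic summits (y axis, % of the peaks in a bin) against strength rank (x axis, bins of 5000 peaks, strongest at the left) in each replicate list and in the pooled list. The share is lowest in the strongest bin of every list, which holds 3.80% to 4.08% in the replicates against 9.36% to 10.98% in the weakest.

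Within the IDR list the share did not fall steadily with strength. The strongest 1724 peaks held 72 intergenic summits (4.18%), the next 1724 held 65 (3.77%), the next 57 (3.31%), and the weakest 97 (5.63%, exact interval 4.59% to 6.82%). There were 2 among the strongest 100 and 40 among the strongest 1000. Intergenic members had a median signal of 304, against 326 for promoter peaks, within a range of 202 to 3613. In the replicate top lists, the median strength percentile (100 = strongest) was 43.5, 45.6 and 39.7 for intergenic peaks and 52.5, 52.2 and 53.7 for promoter peaks. The difference was -9.86 ± 3.76 percentile points (SD, n = 3), lower in 3 of 3 replicates (exact two-sided sign-flip permutation p = 0.25). In the stronger part of each top list (its strongest 3448 peaks) it turned round, to 3.06 ± 2.98, with the lists cut on strength itself. Gene body peaks had median percentiles of 42.1, 43.6 and 40.7 in the replicates and a median IDR signal of 301, close to the intergenic values.

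Members were found in fewer replicate top lists than promoter peaks. Of 291 members, 155 (53.3%, exact interval 47.4% to 59.1%) were found in all 3 top lists, meaning that the summit lay inside a top list peak of each replicate, beside 59.0% of promoter peaks, 51.5% of gene body peaks and 57% of all IDR peaks. A further 77 were in 2 top lists, 51 in 1 and 8 in none (2.75%, interval 1.19% to 5.34%), against 0.827% of all IDR peaks in none. Replicate by replicate, the top lists held 76.6%, 77.7% and 75.9% of the members, against 81.6%, 86.8% and 78.5% of promoter peaks, lower in each of the 3. Gene body peaks gave 75.9%, 83.7% and 72.8%. A top list is itself a limit on strength, so weaker IDR peaks are bound to be in fewer of them. Among IDR peaks ranked up to 3448, 121 of 137 members (88.3%, interval 81.7% to 93.2%) were in all 3 top lists, against 86.8% of promoter peaks. Among the weaker ones it was 34 of 154 (22.1%, interval 15.8% to 29.5%), against 29.2%. Since the IDR list was built from these replicates, the shares describe the list. Of the members, 14 overlap another member and 4 share start and end with one, so neighbouring summits are not always separate peaks.

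Members lay closer to genes than intergenic DNA in general, even though promoters had been taken out. Their nearest TSS lay at a median of 2618 bp, against 6607 bp for all intergenic DNA outside promoters, which covers 34.2 Mb. Within 2 kb of a TSS lay 111 members (38.1%), against 15.02% of that DNA, and within 5 kb 228 (78.4%), against 41.3%. In the replicate top lists the share within 5 kb was 77.3% ± 0.0747 and that within 2 kb 37.5% ± 2.05 (SD, n = 3). The spread between replicates was small beside the gap to intergenic DNA, although the lists share sites. At the far end, 6 members (2.06%) lay over 20 kb from a TSS, against 23.2% of the DNA. From the bodies of both neighbouring genes, 14 members lay over 10000 bp away, and 116 lay within 1000 bp of a gene end.

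**Figure D3:**
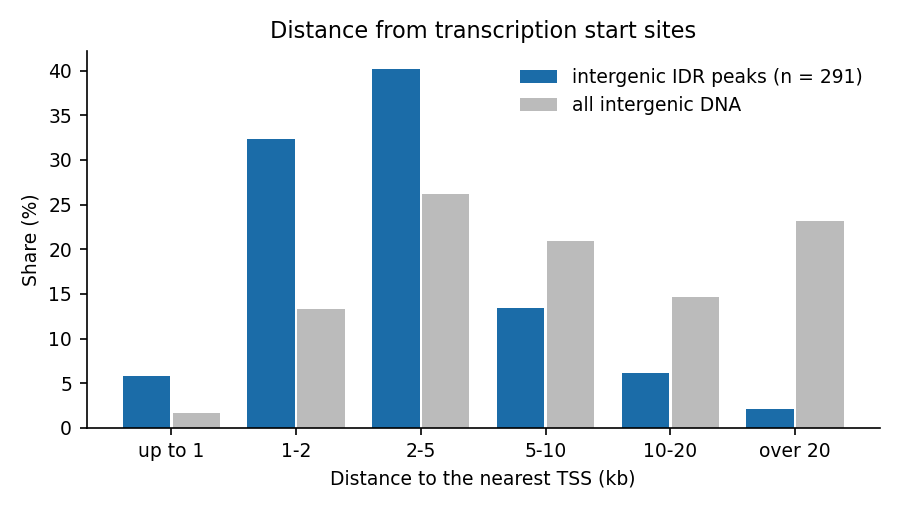
Share (y axis, %) of the 291 intergenic IDR peaks (blue) and of all intergenic DNA outside promoters (grey) by distance to the nearest TSS (x axis, kb). The peaks hold the larger share in each bin up to 5 kb and the smaller share beyond it, with 2.06% against 23.2% over 20 kb.

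The farthest members sat in a long gap on 3L between NijA, which encodes a cell surface protein of the ninjurin family, and CG43245. They lay 33130, 32931 and 32003 bp from the nearest TSS, with IDR ranks 4164, 5718 and 3249. The first of these (10738722 to 10738887) ranked 4582, 3781 and 8207 in replicates 1, 2 and 3, and its neighbour overlapped the same peak of replicate 3. The one with IDR rank 3249 had no peak in replicate 1 and ranked 1586 and 15143 in replicates 2 and 3. The next farthest were a summit past Su(z)2 (23659 bp, IDR rank 6376) and one between vvl, a POU domain factor gene, and lncRNA:CR45115 (21304 bp, rank 5420). The last of these was found in replicate 1 alone. These distant members were less even between replicates than the strongest ones, but they also ranked lower in the IDR list. Of all IDR peaks, 86.5% of those ranked up to 3448 were in all 3 top lists, against 27.6% of weaker ones. Distance was not separated from strength here.

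At the promoter limit, just outside, lay summits 1017 bp upstream of CecB, a cecropin gene (IDR rank 4404), 1048 bp upstream of corto (rank 6303) and 1072 bp upstream of CG5151 (rank 6305). Just inside, and so counted as promoter peaks, lay summits 999 bp upstream of Rtnl1 (rank 4102), 999 bp upstream of heca (rank 4754) and 997 bp upstream of CG43658 (rank 830).

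The members were about evenly divided by side. There were 151 upstream of their nearest TSS and 140 downstream of it, past the end of that gene. The nearest TSS belonged to a protein-coding gene for 199 members, to a non-coding RNA gene for 76 and to a tRNA gene for 10. With gaps between neighbouring genes as the unit, 226 of 5211 gaps held a member, which is 4.34%. By gap, 5.92% of divergent, 4.58% of tandem and 3.54% of convergent gaps held a member. Per Mb of their DNA outside promoters, the order differed, as gaps between divergent genes held 10.9 members (70 in all) and gaps between convergent genes 11.2 (104), while tandem gaps held 6.82 (117). Another IDR summit lay within 2000 bp of 110 members (37.8%), against 42.6% of promoter peaks and 45% of all IDR peaks. All 291 members were also intergenic by the RefSeq annotation. Annotated transposons held 2 of them, and 13 more lay in the promoter window of one.

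Most members were alone in their gap, and some gaps held several. Of the 226 gaps, 188 held 1 member, while 38 held at least 2, together 103, and 8 held at least 4. The gaps named next were chosen for their counts after these were seen. The largest group lay past the end of hry (hairy), a segmentation gene that encodes a bHLH repressor. It held 11 members within 24.0 kb (3L, 8681404 to 8705395), 4 between hry and lncRNA:CR44526 and 7 between that RNA and SrpRbeta. Of these 11, 7 were in all 3 top lists. The strongest (8696427 to 8696973) had signal 931, IDR rank 438 and ranks 603, 432 and 323. The top lists of replicates 1, 2 and 3 held 4, 4 and 5 intergenic summits in the first gap and 7, 8 and 9 in the second, so each replicate showed the group.

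Beside psq, which encodes a BTB factor with the same type of DNA-binding domain as Bab1, 5 members lay in the gap shared with lncRNA:acal (2R, 10549888 to 10556521). Their IDR ranks ran from 2345 to 6635, and the replicate top lists held 5, 3 and 4 summits there. The gap between Su(z)2 and CG13323 held 5 members, and 6, 5 and 4 summits in the replicates. The NijA gap also held 5, but replicate 3 had 2 summits against 5 in each of the others. On the sides of Rh5, which encodes a rhodopsin of photoreceptors, lay 7 members within 8.89 kb (2L), 3 towards Hacd1 and 4 towards lncRNA:CR44588. Of the 7, 2 share start and end and differ in their summit. The gap with the strongest member, COX7AL2 to CG31668, held 4 within 3.10 kb.

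By chromosome, 3L held the most members, 88 (30.2%). Per Mb of intergenic DNA outside promoters, the replicate top lists had 10.7 ± 1.05 summits on 3L and 11.1 ± 0.58 on X (mean ± SD, n = 3). They had 8.18 ± 0.632 on 3R, 7.15 ± 0.913 on 2R and 7.10 ± 1.13 on 2L. The lowest replicate value on X (10.4) and on 3L (9.65) lay above the highest on 3R (8.83), while X and 3L overlapped. As a share of the IDR peaks on the same chromosome, members made up 6.59% on 3L but 3.58% on X, 3.56% on 3R, 3.69% on 2R and 3.71% on 2L, so X stood out per Mb and not by this share. Chromosome 4 held 3 members and had 9.09, 18.2 and 9.09 summits per Mb in replicates 1, 2 and 3, too few to place it. The strongest of its members (424685 to 424935, 1234 bp from the TSS of lncRNA:CR43437) had IDR rank 793 and ranks 734, 900 and 911. The others had IDR ranks 5295 (416218 to 416641) and 6709 (434245 to 434668), the last between lncRNA:CR44024 and lgs, a Wnt pathway gene, with no peak in replicate 3.

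**Figure D4:**
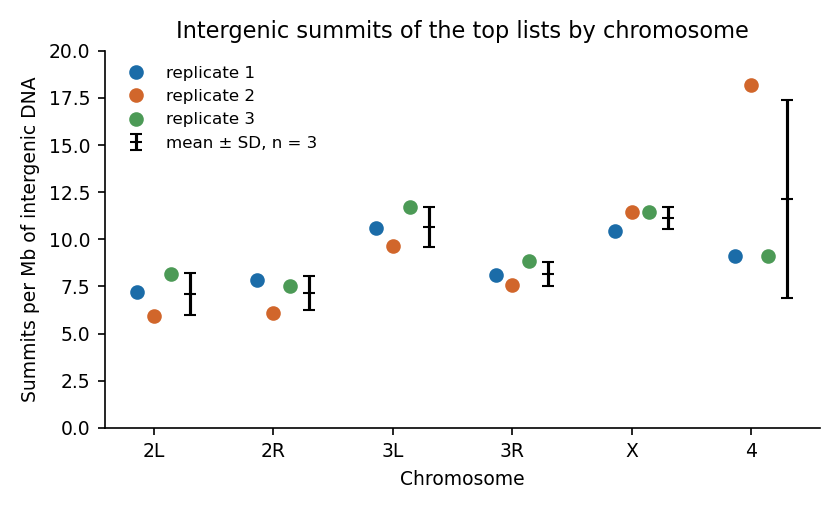
Intergenic summits of the top lists per Mb of intergenic DNA outside promoters (y axis) by chromosome (x axis), with 1 dot per replicate and the mean ± SD (n = 3). All 3 replicates on X and on 3L lie above those on 2L, 2R and 3R, and chromosome 4 runs from 9.09 to 18.2.

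The genes best known from Bab1 biology had no intergenic IDR peak next to them, though most had IDR peaks of the other kinds nearby. For yellow (y), ebony (e), tan (t) and Ddc, which act in cuticle pigmentation, and for bab1 and bab2, the count was 0 in the adjoining gaps and 0 within 20000 bp. Counting promoter and gene body peaks too, IDR peaks within 20000 bp numbered 1 for y, 2 for e, 4 for t and 5 for Ddc. They numbered 8 for bab1 and 0 for bab2. The gene y has no adjoining gap with DNA outside promoters. Replicate 3 alone had 1 top list summit in the gap between bab1 and bab2. Of all 14 pigmentation genes listed, 1 flanked a member, against 2.42% of all 18164 genes. This was ple, the tyrosine hydroxylase gene, at 4173 bp (3L, 6709076 to 6709319, IDR rank 991, in all 3 top lists), with the TSS of CG8519 nearer. With so few genes, a count of 0, 1 or 2 cannot be set apart from that share.

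Among patterning and hormone genes, the share of genes flanking a member varied by list beside the 2.42% of all genes, and each count was small. Gaps with a member were longer, with a median of 5187 bp against 2626 bp for all gaps with DNA outside promoters. The lists were not matched to all genes in gap length, so a higher share is not tied to gene function. Leg and antenna genes had 2 of 30, namely ct (cut, IDR rank 3177, 141 bp from the gene body) and B-H2 (rank 3412, 8831 bp). Genes of the ovarian terminal filament and niche had 2 of 15 (13.3%), zfh1 (rank 1608, 14849 bp) and wg (rank 3912, 25538 bp). None of 8 Hox genes, 18 neural fate genes or 8 clock genes flanked a member. Segmentation genes had 3 of 18 (16.7%, exact interval 3.58% to 41.4%), namely hry (6256 bp for its strongest member), kni (16244 bp) and wg. Signalling ligands had 5 of 26 (19.2%, exact interval 6.55% to 39.4%). Among them were the EGF receptor ligand gene vn (rank 1169, 24140 bp) and upd2, a JAK/STAT ligand gene (rank 3363, 1178 bp). The member beside wg is the same as that beside Wnt4. Of 15 ecdysone response genes, 2 flanked a member, Eip93F (rank 1016, 11807 bp) and Hr38 (rank 6363, 1693 bp). All these distances are from the gene body. For the members beside ct, B-H2, zfh1, kni, wg and vn, another gene had the nearest TSS.

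The other lists are also to be read beside 2.42%, and they too were not matched in gap length. BTB zinc finger genes had 2 of 14, lola (2R, 10544518 to 10544875, 1378 bp upstream, rank 564) and psq. Immune effector genes had 3 of 16 (18.8%, interval 4.05% to 45.6%), PGRP-SA and the neighbours CecC and CecB, which share a member. Yolk and vitelline genes had 2 of 9, psd and Vm26Aa, which also share a member (rank 5702). Ribosomal protein genes had 5 of 92 (5.43%, interval 1.79% to 12.2%), with RpL17 (rank 1312) and RpLP0 (rank 2054) the strongest, and chemosensory receptor genes had 3 of 179 (1.68%, interval 0.347% to 4.82%). Neighbouring genes can share a member, so genes of a list do not count independently. By the stricter count, genes with the nearest TSS of a member, the share of all genes was 1.3%. It was 2 each of the BTB, ecdysone, ligand and immune genes, 3 of the chemosensory genes, 1 each of the segmentation, yolk and ribosomal protein genes, and 0 of the other 6 lists.

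The windows at intergenic summits held the DRE, the motif 1 core and the BEAF-32 site less often than those at promoter summits. Each pattern was searched on both strands within 50 bases of the summit. The DRE (TATCGATA, bound by Dref) was in 1 of 291 members (0.344%), against 5.90% of promoter peaks and 4.41% of all IDR peaks. In the replicates, it was in 0.544% ± 0.161 of intergenic and 5.45% ± 0.325 of promoter peaks (SD, n = 3). The motif 1 core (GGTCACACT, bound by M1BP) was in 0 of 291, which allows a share of up to 1.26% by the exact interval, against 3.31% of promoter peaks and 2.41% of all IDR peaks. The BEAF-32 site (CGATA, also contained in the DRE) was in 38 members (13.1%), against 27.0% of promoter peaks and 23% of all IDR peaks. Replicates gave 14.5% ± 4.14 for it in intergenic peaks and 26.2% ± 0.797 in promoter peaks. For each of these the intergenic share was lower in 3 of 3 replicates (exact two-sided sign-flip permutation p = 0.25), by more than the spread between replicates. Gene body peaks of the IDR list were close to the intergenic ones, with the DRE in 0.44%, the motif 1 core in 0% and the BEAF-32 site in 12.4%. Beside local DNA the BEAF-32 site was not rare, as the members' own flanks held it in 9.28% and windows over all intergenic DNA in 10.5%. In the replicates it was above flanks in 3 of 3, by 4.81 ± 4.85 percentage points (SD, n = 3), no larger than the spread between replicates.

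Parts of 2 other insulator sites were seen more often at intergenic than at promoter summits. The Su(Hw) core (TGCATA) was in 38 members (13.1%, exact interval 9.41% to 17.5%), against 5.52% of promoter peaks, 9.68% of gene body peaks, 7.39% of the members' own flanks and 6.92% of all 334249 windows of intergenic DNA, with 6.8% in all IDR peaks. The share of gene body peaks lies inside the members' interval, so the excess is not shown to be particular to intergenic peaks. The replicates had 12.9%, 10.4% and 12.2% in intergenic peaks and 5.78%, 7.19% and 7.19% in their flanks. The difference was 5.13 ± 1.93 percentage points against flanks and 6.16 ± 1.20 against promoter peaks (SD, n = 3; higher in 3 of 3, exact two-sided sign-flip permutation p = 0.25 for each). The CTCF core (AGGTGGCG) was in 5 members (1.72%, interval 0.56% to 3.96%), against 0.578% of promoter peaks, 0.629% of gene body peaks, 0.515% of flanks, 0.16% of all windows of intergenic DNA and 0.638% of all IDR peaks. The shares of promoter, gene body and all IDR peaks lie inside the members' interval, so with 5 windows an excess over them is not shown. Members with the Su(Hw) core had a median signal of 272, against 308 without it. The windows beside Rab9D, tara and osp shown above are examples of it, and those beside sbr and Bap111 hold the CTCF core. A match is a run of letters and was not tied to binding.

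The repeats of A and T, of the kind bound by Bab proteins, were about as frequent as in flanks and promoter peaks. The TA repeat (TATATATA) was in 5 members (1.72%), against 1.36% of promoter peaks, 1.89% of flanks and 1.45% of all IDR peaks, and the TAA repeat (TAATAATAA) was in 3 (1.03%), against 0.997% and 1.03% of flanks, with 1.03% in all IDR peaks. In the replicates the difference from flanks was -0.372 ± 1.32 for the TA repeat and 0.274 ± 0.524 for the TAA repeat, within the spread between replicates. GAGA (GAGAG) was in 34 members (11.7%), against 11.3% of promoter peaks and 11.7% of all IDR peaks. The TATA box (TATAAA) was in 47 (16.2%), against 15.9% of promoter peaks and 16.5% of all IDR peaks. The Pho core (GCCAT), known from Polycomb response elements, was in 51 (17.5%), against 16.4% and 15.9%. The E-box (CACGTG) was in 6 members (2.06%), against 1.30% of promoter peaks and 1.25% of all IDR peaks. The GATA site (AGATAA) was in 17 (5.84%), against 5.86% and 6.19%, and the AP-1 site (TGANTCA) in 10 (3.44%), against 1.99% and 2.15%. The site of Zelda (CAGGTAG), a pioneer factor of the embryo, was in 4 (1.37%), against 0.45% of all IDR peaks, and the E2F site (TTTCCCGC) in 0, against 0.479%. The B box of tRNA genes (GTTCGANNC) was in 6 (2.06%), against 1.22% of all IDR peaks, the CA repeat (CACACACA) in 4 (1.37%), against 1.91%, and a run of 8 A (AAAAAAAA) in 16 (5.5%), against 5.76%. Of the patterns in this paragraph, several were above flanks in 3 of 3 replicates. In percentage points these were AP-1 by 1.05 ± 0.0491, the E-box by 1.03 ± 0.425 and Zelda by 0.392 ± 0.129 (SD, n = 3). The B box was above flanks by 0.627 ± 0.403 and the Pho core by 2.36 ± 1.92. Few windows lie behind all but the Pho core, and in windows of 51 bp the AP-1 difference was 0.12 ± 0.208. No match says only that these letters are not in the window.

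Counting all sequences of 6 bases in the members' windows brought out others, which can overlap the patterns above. The 3 given here were chosen by hand after the data were seen, so no test is given, and others had as large an excess over flanks, such as GCTTTA in 36 members (12.4%), against 4.47% of flanks. GCGCCA was in 30 members (10.3%), against 5.27% of promoter peaks, 2.41% of flanks, 3.36% of all windows of intergenic DNA and 5.22% of all IDR peaks. In the replicate top lists it was in 11.2%, 9.71% and 10.7% of intergenic peaks, against 2.97%, 3.06% and 2.29% of their flanks. Of the members with GCGCCA, 21 of 30 (70%) were in all 3 top lists, against 53.3% of all members. The share was 65.8% (25 of 38) with the BEAF-32 site and 80% (4 of 5) with the CTCF core, so GCGCCA did not stand out. It was 48.3% (14 of 29) with GCATAC, 50% (18 of 36) with AAGTAT and 42.1% (16 of 38) with the Su(Hw) core. GCGCCA overlaps the CTCF core in the windows beside sbr and Bap111. GCATAC, which shares letters with the Su(Hw) core, was in 29 members (9.97%), against 3.05% of promoter peaks, 4.47% of flanks and 3.9% of all IDR peaks. AAGTAT was in 36 (12.4%), against 7.38% of promoter peaks, 5.15% of flanks and 8.21% of all IDR peaks. On the other strand it reads ATACTT, which overlaps the Su(Hw) core in the osp window above, as TGCATACTT. The Sol1 and glec windows hold AAGTAT without that core. The 3 sequences are thus not independent of the patterns above. Gene body peaks held GCGCCA in 4.15%, GCATAC in 5.47% and AAGTAT in 10.1%. For AAGTAT that share lies inside the members' exact interval (8.82% to 16.7%), so its excess is not shown to be particular to intergenic peaks. The replicate lists share most of these sites, so their closeness is no independent evidence.

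GC content was slightly low at the summits. It averaged 38.2% over members, against 39.4% over promoter peaks, 39.6% over the flanks of the members and 40.9% over all intergenic DNA, while single windows varied with an SD of 10.6. In the replicates the intergenic minus promoter difference was -1.25 ± 0.185 percentage points, lower in 3 of 3. Against the flanks it was -1.18 ± 1.43, no larger than the spread between replicates (exact two-sided sign-flip permutation p = 0.25 for both).

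**Figure D5:**
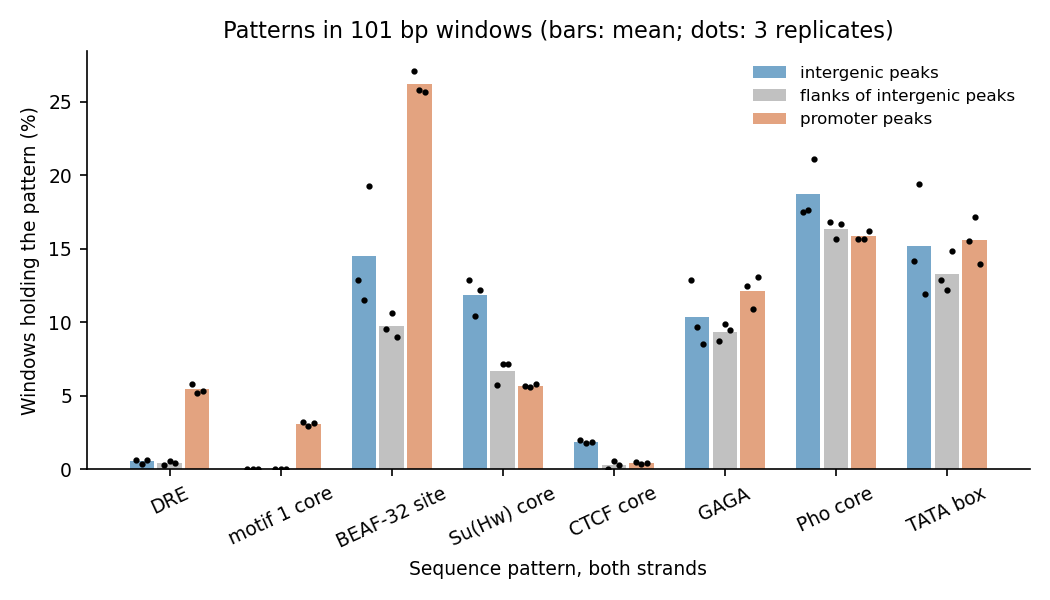
Share of windows, 50 bases to either side of the summit or of a flank's centre, that hold a pattern (y axis, %) in intergenic peaks (blue), their flanks (grey) and promoter peaks (orange) of the replicate top lists, with bars for the mean and dots for the 3 replicates. The DRE, motif 1 core and BEAF-32 site are highest at promoter peaks, and the Su(Hw) core is highest at intergenic peaks in each replicate.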

How the data were processed

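ChIP-seq peak lists of 3 biological replicates, each of 30000 peaks, of the pooled replicates and of the IDR peaks were analysed on dm6. Groups and replicate numbers came from the labels. Per the deposited file listings, peaks were called against a control library that is not used here. Which aligner and peak caller were used is not given in the sources used here. Signal values, as deposited, come from the authors' peak caller and were compared, as ranks or as values, within a list only. The deposited summit offsets placed the summits. For each replicate, the 6896 strongest peaks formed its top list.

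Genes came from Ensembl release 115 (BDGP6.54) without transposon genes, and sequence from RefSeq. Coordinates are 1-based. Windows reaching 50 bases to each side of a summit were compared with equal windows whose centres lay 500 bp away on each side. Within-replicate differences were tested by exact sign-flip permutation, whose smallest two-sided p is 0.25 with 3 replicates. Whether the replicates came from separate cultures is not stated, so spreads measure these samples only. Intervals of shares are 95% Clopper-Pearson intervals of counting error alone. Code used Python 3.11.15, numpy 2.4.6, pandas 2.3.3 and scipy 1.17.1, and was checked on made-up input, where all planted patterns were found.

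Peaks named are the 12 strongest, the 5 farthest from a TSS, all on chromosome 4, those next to y, e, t, Ddc, bab1 or bab2, 3 on either side of the promoter limit and up to 4 per gene list. Members, gene lists and patterns were chosen with earlier results of these data known. The ligand symbol Dl matched more than 1 gene and was left out. The alternatives tried were other promoter limits, overlap rules, window sizes, strength limits, annotations and each replicate left out.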

Additional observations from a re-analysis of the deposited data

How the results depend on the processing

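The intergenic share moved with the promoter limit, and the share of members in all 3 top lists with the overlap rule. With promoters of 500 bp upstream, 2000 bp upstream or 250 bp on either side of a TSS, the intergenic share was 5.61%, 3.20% and 7.42% of IDR peaks, 5.77%, 3.27% and 7.63% of replicate top lists (mean), and the median distance to a TSS was 1717, 3448 and 1170.5 bp. With the whole peak required outside genes and promoters, the shares were 3.55% and 3.64%, and in the stronger part of each top list 3.80%. The share of members in all 3 top lists was 36.1% with a reciprocal overlap of at least 50% and 90.4% with whole lists. Leaving out each replicate gave 61.2% to 62.9% of members in both others, since fewer lists had to hold a peak. Another IDR summit lay near 31.2% and 44.5% of members with promoters of 2000 bp and of 250 bp on either side, and 19.6% and 57.4% within 1 kb and 5 kb. The median strength difference turned to 3.06 in the stronger part of each list, and the cause was not tested. Among patterns against promoter peaks, the E-box turned to -0.0974 with promoters of 250 bp, AP-1 to -0.491 in the stronger part and E2F to 0.00368 in windows of 51 bp, and the cause was not tested. In windows of 100 bases to either side, GAGA was lower than at promoter peaks by a difference of -6.19 ± 2.65 percentage points and the TATA box higher by 3.02 ± 1.83. The Su(Hw) core stayed higher at intergenic peaks under each alternative run, by 2.77 to 9.75 points against promoter peaks and 2.34 to 6.69 against flanks. The 3 sequences of 6 bases that were added after the data were seen also stayed higher. They were chosen from counts in these same windows, so this is no separate support for them. No paired analysis was possible because there is 1 group, with no second group to share replicate numbers; differences between kinds of peaks were taken within each replicate. The p-values cannot pass 0.05 with 3 replicates, and the depth of each library is unknown.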

Other observations

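Genes for tRNAs flanked 14 of the 291 members and had the nearest TSS for 10. Of 290 tRNA genes, 10 (3.45%) flanked a member, against 2.42% of all 18164 genes, and of 3261 non-coding RNA genes 100 (3.07%) did. Gap length was not matched here either. Beyond the IDR list, the pooled list held 2140 more intergenic summits among its 23104 other peaks (9.26%).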
